A study of Sus scrofa with 2 samples.

Results

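The neurotrophins are a small family of secreted growth factors, and 8 genes of the family and its signalling route were followed here in the piglet hippocampus: the ligands BDNF and NTF3, the receptors NTRK2, NTRK3, NGFR and SORT1, the secreted protein VGF and the transcription factor CREB1. The genes were chosen by name, with earlier results of these data known. A row of the expression table belonged to a gene when its Ensembl pig gene ID was paired with that symbol. Of the 8 genes, 5 had a row among the 25322 gene IDs of the table. These were BDNF (ENSSSCG00000013333), NTRK2 (ENSSSCG00000010959), NTRK3 (ENSSSCG00000005106), NGFR (ENSSSCG00000017548) and SORT1 (ENSSSCG00000006831). The IDs paired with NTF3, VGF and CREB1 were not among the rows used, so these 3 genes were not analysed here.

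RNA sequencing of the hippocampus compared Rongchang-breed piglets labelled as control with piglets that had received iron dextran, an iron and sugar polymer complex injected to prevent iron deficiency. Both samples carry the genotype label "wide type" and no other allele or agent. The study had 1 control sample and 1 iron dextran sample, and the label of each lists 2 names whose relation to animals or libraries is not stated. The sources used here do not give an age beyond the piglet stage, the dose or the time since treatment. With 1 sample a group there was no spread between replicates, no test was made, and every difference below is one between these samples and has no replicate check.

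Neurotrophins are made as longer precursors that proteases cut to the mature factor. Mature BDNF and NTF4 act through TrkB, the receptor tyrosine kinase encoded by NTRK2, and NTF3 acts mainly through TrkC, encoded by NTRK3. The uncut precursors bind p75, encoded by NGFR, together with sortilin, encoded by SORT1. In the hippocampus, BDNF and TrkB are known for their part in synaptic plasticity and memory, and CREB1 is a transcription factor that BDNF signalling activates and that in turn acts on the BDNF gene. TrkB is made in a full-length form with a kinase domain, mainly in neurons, and in truncated forms without it, of which astrocytes make much. The table held 1 value per gene, so these forms could not be told apart.

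Of the 4 members with a mean level of at least 1 FPKM, NTRK2 differed most: its level was 1.64 times as high in iron dextran as in control. BDNF, NTRK3 and SORT1 had nearly the same level in both samples, and NGFR was low in both. Levels are given as FPKM, fragments scaled to transcript length and to the mapped total of the library, which allows a rough comparison of levels between genes. The annotation that set the transcript lengths is not given. Orders and ratios of levels between genes therefore rest on lengths that could not be checked. In control, SORT1 stood highest at 23.8 FPKM, followed by NTRK2 (21.4 FPKM), BDNF (12.7 FPKM), NTRK3 (8.87 FPKM) and NGFR (1.08 FPKM). In iron dextran the first place passed to NTRK2 at 35.2 FPKM, and SORT1 (24.5 FPKM), BDNF (13.7 FPKM), NTRK3 (9.15 FPKM) and NGFR (0.783 FPKM) followed in the order they had in control. Without replicates, it cannot be said which neighbours in these orders differ beyond their spread. In both samples SORT1, NTRK2 and BDNF lay above the middle of the 12557 genes that had a mean level of at least 1 FPKM (the measured genes), and NTRK3 lay just below it, at percentile 48.1 in control and 48.3 in iron dextran.

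**Figure D1:**
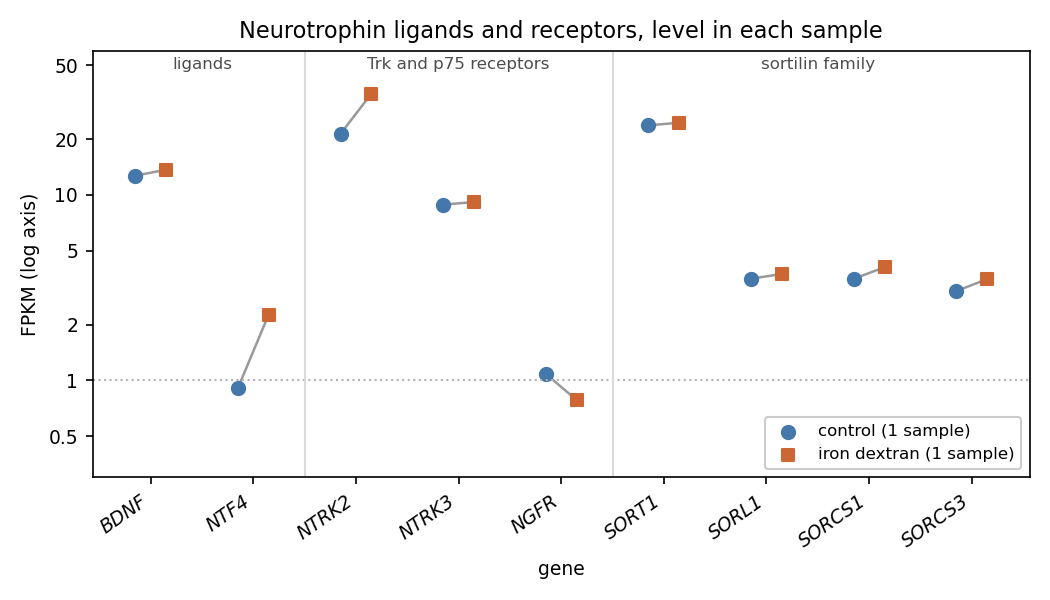
FPKM (log axis) of the 2 measured ligands and the 7 receptors with a row, in control (circles, 1 sample) and iron dextran (squares, 1 sample), with a grey line joining the values of a gene; the dotted line marks 1 FPKM. The lines of NTRK2 (21.4 to 35.2 FPKM) and NTF4 (0.909 to 2.26 FPKM) are steep, while those of BDNF, NTRK3 and SORT1 are nearly flat.

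Differences were taken between the log2(FPKM + 1) values, control subtracted from iron dextran. A measured gene was called higher or lower where this difference reached 1.5-fold, on a scale that understates the change of genes with low values. By this rule 1 of the 4 measured members, NTRK2, was higher in iron dextran and 0 of 4 were lower. Among all 12557 measured genes, 2.47% were higher and 1.47% were lower by the same rule. The fifth gene with a row, NGFR, had a mean level under 1 FPKM and was not counted. All 4 measured members lay above 0 on the difference scale, with a median of 0.07 (0.05 over all 5 with a row, NGFR included), where 49.0% of all measured genes lay above 0 and their median was -0.0046.

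Of the receptors, NTRK2 had 21.4 FPKM in control and 35.2 FPKM in iron dextran, a log2 difference of 0.69. Its difference was at percentile 98.3 of all measured genes, and 218 of these, NTRK2 included, had a difference at least as large. Large differences were rarer among genes as abundant as NTRK2 than among low genes. When the measured genes were divided into 20 bins of equal size by mean level, 5 of the 628 genes in the bin of NTRK2 (0.796%) were at least 1.5-fold higher, and NTRK2 had the smallest difference of these 5. Over the 6 other choices of pseudocount and scaling, the log2 difference of NTRK2 ran from 0.68 to 0.81, and it passed the 1.5-fold rule in each. It did not reach 2-fold. The 3 genes with a symbol whose pair of levels lay nearest to that of NTRK2, over these 2 samples alone, were CLK1 (19.96 FPKM in control and 34.7 FPKM in iron dextran), CALCR (21.2 and 38.3 FPKM) and MX1 (23.3 and 35.6 FPKM).

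**Figure D2:**
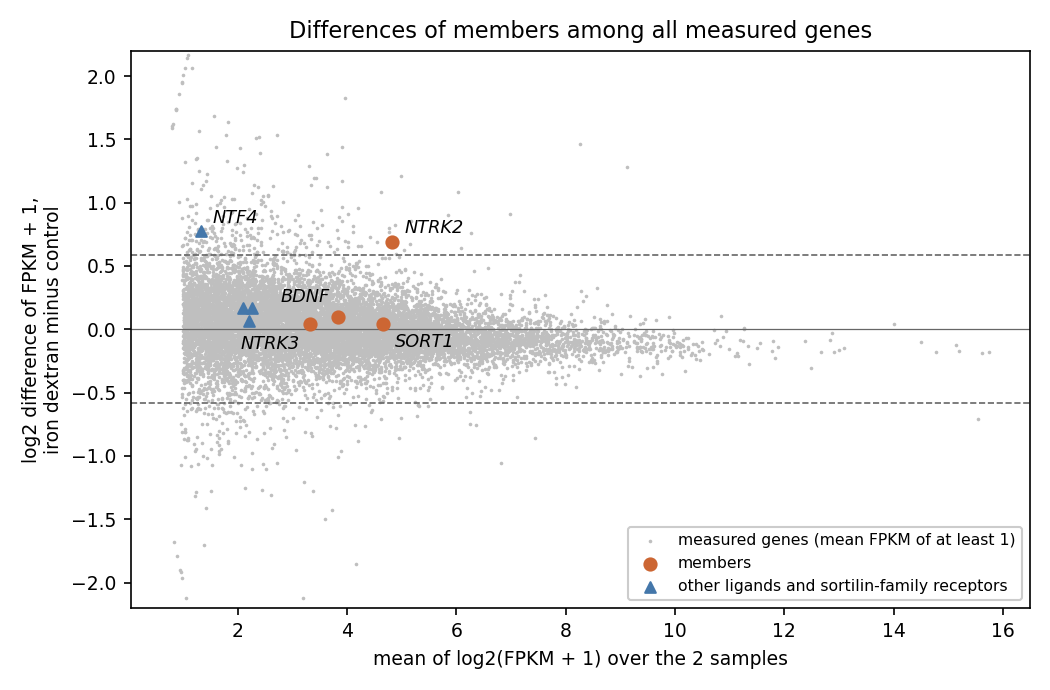
Log2 difference between the samples (FPKM + 1, control subtracted from iron dextran) against the mean of log2(FPKM + 1) over the 2 samples, for the measured genes (grey), the 4 measured members (orange circles) and NTF4, SORL1, SORCS1 and SORCS3 (blue triangles, only NTF4 named); dashed lines mark 1.5-fold, and 44 genes beyond 2.2 on the vertical axis are not drawn. NTRK2 (0.69) lies above the upper dashed line in a range of levels where few other genes do, and BDNF, NTRK3 and SORT1 lie within 0.10 of the zero line.

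The TrkC gene did not show the same difference. NTRK3 had 8.87 FPKM in control and 9.15 FPKM in iron dextran, a log2 difference of 0.04. The ratio of NTRK2 to NTRK3 within a sample, which does not depend on how the columns are scaled to each other, was 2.41 in control and 3.84 in iron dextran.

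The p75 receptor gene NGFR had 1.08 FPKM in control and 0.783 FPKM in iron dextran, so control was 1.39 times as high. Its level exceeded that of 2.93% of the measured genes in control and of 0.486% in iron dextran. This low place follows from the filter, because the measured genes are those with a mean of at least 1 FPKM and NGFR is not one of them. Of all 25322 gene IDs, 7870 were listed at 0 in both samples. In the adult forebrain p75 is best known from cholinergic neurons, whose axons reach the hippocampus while their cell bodies lie elsewhere. The cholinergic transporters SLC18A3 (3.56 FPKM in control and 3.44 FPKM in iron dextran) and SLC5A7 (2.54 and 2.13 FPKM) were measured. CHAT, the acetylcholine-synthesizing enzyme, was listed at 0 in control and had 0.0914 FPKM in iron dextran. Of the other listed cholinergic markers, LHX8 had 0 FPKM in control and 0.0408 FPKM in iron dextran, and ISL1 was listed at 0 in both samples. NGFR did not pass the filter on low values, and the depth of the libraries is unknown, so no counting error can be given for it.

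Of the ligands, BDNF had 12.7 FPKM in control and 13.7 FPKM in iron dextran, a ratio of 1.07 and a log2 difference of 0.10. Of all measured genes, 3892 had a difference at least as large. For each unit of BDNF there were thus 1.68 units of NTRK2 in control and 2.57 in iron dextran, on the FPKM scale. NTF4 (ENSSSCG00000003160), which encodes neurotrophin 4, the other ligand of TrkB, is not one of the 8 genes but stands on the list of ligands. It had 0.909 FPKM in control and 2.26 FPKM in iron dextran, a ratio of 2.49 and a log2 difference of 0.77. NTF4 was thus higher by the 1.5-fold rule, but it passed the filter on low values only through its value in iron dextran, so it had to be higher there to be counted. It stood at a much lower level than BDNF in both samples: BDNF made up most of the level summed over these 2 ligands, 13.6 FPKM in control and 15.9 FPKM in iron dextran. NTF3 is not in this sum, so it does not give the share of BDNF among all neurotrophins. In the expression bin of NTF4, 21 of 628 genes had a difference at least as large, against 5 of 628 for NTRK2 in its own bin.

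SORT1, the sorting receptor that pairs with p75 and also directs BDNF precursor inside the cell, had 23.8 FPKM in control and 24.5 FPKM in iron dextran, a log2 difference of 0.05. The ratio of SORT1 to NGFR was 21.9 in control and 31.3 in iron dextran, and it rests on the low value of NGFR: with 1 FPKM added to each term the ratios were 11.9 and 14.3. The related receptors of the same family had lower levels. SORL1, which sorts cargo between endosomes and the Golgi, had 3.53 FPKM in control and 3.75 FPKM in iron dextran. SORCS1 had 3.53 and 4.08 FPKM, and SORCS3 had 3.03 and 3.52 FPKM. SORT1 made up 70.2% of the summed level of these 4 genes in control and 68.4% in iron dextran. None of the 4 was 1.5-fold higher or lower. SORCS2 was not analysed here.

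The wider route of neurotrophin signalling was described with 8 lists of genes, the ligands and receptors among them, which held 182 different genes, of which 117 were measured. By the 1.5-fold rule 2 of the 117 (1.71%) were higher, NTRK2 and NTF4, and 1 (0.855%) was lower, DOK6. The count of 2 includes NTF4, which entered the measured genes only through its iron dextran value. All genes of the lists carry a symbol, and of the 8403 measured genes with a symbol 105 were higher and 54 were lower by this rule, so the counts within the lists are near those of genes at large. The median log2 difference over the 117 genes was 0.02.

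Proneurotrophin processing and granule cargo came first, that is, the proteases that cut the precursors, their inhibitors and the proteins stored with BDNF in dense core granules. Of 13 measured genes, 0 were 1.5-fold higher and 0 lower, and the median log2 difference was 0.0021. The protease PCSK6 had 11.7 FPKM in control and 9.04 FPKM in iron dextran, and PCSK7 had 6.82 and 5.70 FPKM. The granule protein SCG2 had 82.3 and 97.9 FPKM, and CADPS2, which primes dense core granules for release, had 7.82 and 9.09 FPKM. These were the 4 with the widest differences, and they went in both directions.

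Trk adaptors and the kinases downstream were next, with 33 measured genes and a median log2 difference of -0.01. None was 1.5-fold higher and 1 was lower. This was DOK6, an adaptor protein of receptor tyrosine kinases, which had 5.81 FPKM in control and 1.86 FPKM in iron dextran, a log2 difference of -1.25. The related adaptor DOK5 also had the lower value in iron dextran, with 26.3 and 20.6 FPKM. FRS2, which docks to activated Trk receptors, had 0.964 FPKM in control and 1.52 FPKM in iron dextran, and the kinase BRAF had 1.14 and 1.71 FPKM. FRS2 and BRAF are low genes, and neither passed the 1.5-fold rule on the log2(FPKM + 1) scale. FRS2 passed the filter on low values only through its value in iron dextran.

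Among partners of p75, 18 genes were measured, 0 were 1.5-fold higher or lower, and the median log2 difference was -0.06. The stress-activated kinases MAPK9 (7.57 FPKM in control and 10.1 FPKM in iron dextran) and MAPK8 (2.31 and 3.26 FPKM) and the adaptor kinase RIPK2 (11.8 and 15.4 FPKM) were above control, and the kinase IRAK1 (14.4 and 11.8 FPKM) was below it. Of the 18, 13 lay below 0 and 5 above, where 49.0% of all measured genes lay above 0. The sign of the list median depended on the scaling of the columns, as given below.

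For the CREB family with its kinases and coactivators, 15 genes were measured, with 0 past 1.5-fold in either direction and a median log2 difference of -0.04. PPP3CA, the catalytic subunit of the calcium-dependent phosphatase calcineurin, had 31.1 FPKM in control and 43.0 FPKM in iron dextran. CRTC2, a coactivator of CREB, had 7.74 and 9.88 FPKM, and the kinase CAMK1G had 33.9 and 41.8 FPKM. PRKAR1A, a regulatory subunit of protein kinase A, had 113 and 137 FPKM.

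Activity and CREB target genes, many of which neurotrophin signalling induces within minutes to hours, had a median log2 difference of 0.17. Of 17 measured genes, 14 lay above 0 and 3 below, and 0 were 1.5-fold higher or lower. Over all measured genes, 49.0% lay above 0, and the third quartile of the differences was 0.14. Any link of the values of this list to NTRK2 was not tested. EGR3, a transcription factor induced by activity, had 1.68 FPKM in control and 2.62 FPKM in iron dextran, and FOS had 7.21 and 8.87 FPKM. The FPKM ratio of EGR3 was 1.555, and it fell short of the 1.5-fold rule only on the log2(FPKM + 1) scale. The neuropeptide gene CRH had 10.8 and 13.7 FPKM, and PPARGC1A, a coactivator of mitochondrial genes, had 1.19 and 1.68 FPKM.

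**Figure D3:**
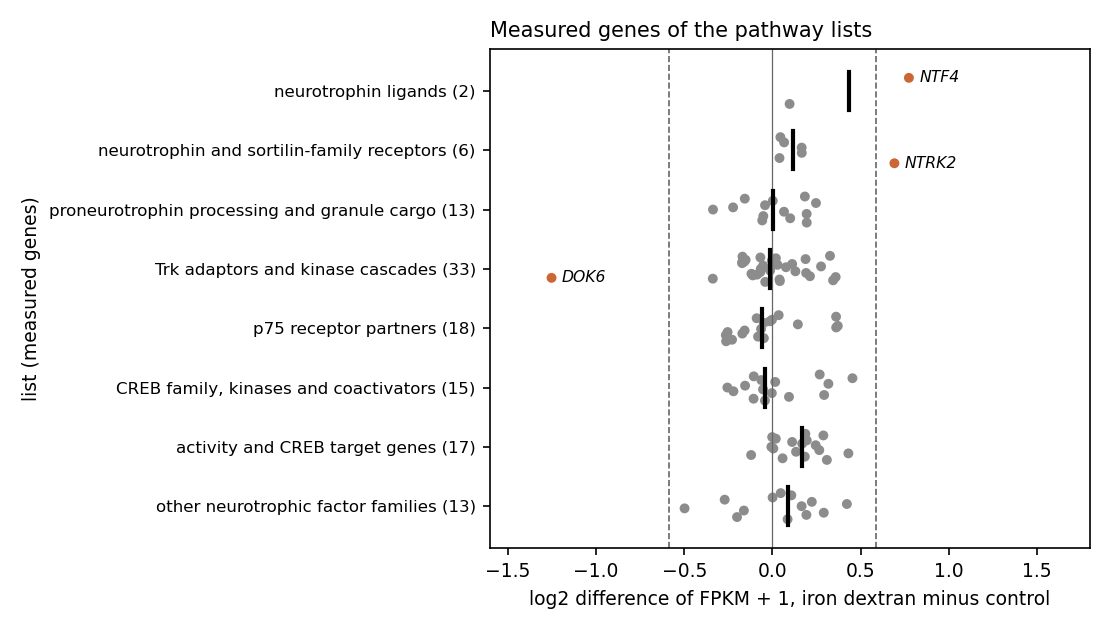
Log2 difference of FPKM + 1 (control subtracted) for each measured gene (dots) of the 8 lists, with the number of measured genes in parentheses and the list median as a black bar; dots are spread vertically for legibility, dashed lines mark 1.5-fold, and genes past them are orange and named. NTF4 and NTRK2 lie beyond the upper line and DOK6 beyond the lower one, and the other genes lie between the lines.

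Markers of the cell types that the tissue could hold were set beside NTRK2, because bulk RNA cannot tell a change in the number of cells from a change in RNA per cell. Markers of neurons and glia were present, among them SLC17A7 (658 FPKM in control and 611 FPKM in iron dextran), GAD1 (86.1 and 99.2 FPKM) and GFAP (1275 and 1145 FPKM). These genes mark cell types and not the hippocampus. Of 7 listed markers of dentate granule neurons, 3 lay below the filter on low values, as given below. Astrocytes, a main source of truncated TrkB, had 10 of 13 listed markers measured, of which 5 lay above 0 and 5 below, 0 were 1.5-fold higher or lower and none was listed at 0. Their median log2 difference was 0.01, and their summed level was 3408 FPKM in control and 3182 FPKM in iron dextran. Most of this sum came from GFAP and ALDOC (1547 and 1382 FPKM), both with the lower value in iron dextran, so the sum says little about the other markers. Within this list, the glutamate transporters SLC1A3 (116 and 143 FPKM) and SLC1A2 (12.8 and 15.7 FPKM) and the connexin GJA1 (178 and 215 FPKM) were above control, and the receptor FGFR3 (15.4 and 13.4 FPKM) was below it. The 7 measured pan-neuronal markers had a median of -0.03 and a summed level of 3718 FPKM in control and 3581 FPKM in iron dextran, with 0 past 1.5-fold and none listed at 0. The part of either cell type in the level of NTRK2 was not tested.

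Some other marker lists had values on the same side as NTRK2, above 0, where 49.0% of all measured genes lay. All 6 measured microglial markers lay above 0, with a median of 0.40, a summed level of 97.1 FPKM in control and 124 FPKM in iron dextran and 1 of them, P2RY12, past 1.5-fold (9.80 and 20.05 FPKM). The 3 measured erythroid genes were all past 1.5-fold, with a summed level over the 4 with a row of 189 FPKM in control and 519 FPKM in iron dextran. The 4 measured dentate granule markers had a median of 0.31, which was 0.0768 over all 7 with a row and 0.13 at a mean of at least 5 FPKM. Of these markers C1QL3 had 11.5 and 16.5 FPKM, NEUROD1 5.85 and 6.499 FPKM, C1QL2 10.8 and 10.3 FPKM, and CALB1, which passed the filter only through iron dextran, 0.802 and 1.56 FPKM. Below the filter lay PROX1 (0.761 and 0.858 FPKM), DSP (0.546 and 0.241 FPKM) and TDO2, listed at 0 in both samples. The 8 measured inhibitory neuron markers had a median of 0.13, with 7 above 0 and 1, PVALB (104.9 and 84.35 FPKM), below. Both measured choroid plexus markers lay above 0, TTR with 19.9 and 24.2 FPKM and KCNJ13 with 1.26 and 1.57 FPKM, a median of 0.23. Of the 4 measured excitatory markers, CAMK2A was past 1.5-fold (1.99 and 3.93 FPKM) and the other 3 lay below 0. The part of any of these in the level of NTRK2 was not tested. The medians of the oligodendrocyte (-0.19, with 1 of 8 measured markers above 0) and meningeal (-0.35, with 2 of 6 above 0) lists lay on the other side. The medians of the oligodendrocyte precursor (-0.13), endothelial (-0.13), pericyte (-0.09) and cholinergic (-0.11) lists were also below 0. Of the 5 measured precursor markers, PDGFRA (4.54 and 6.13 FPKM) and CSPG4 (1.71 and 2.25 FPKM) lay above 0 and 3 lay below. Above 0 were also 1 of 4 endothelial, 2 of 7 pericyte and 0 of 2 cholinergic markers. FOXJ1, the 1 measured ependymal marker, was below 0 (8.89 and 6.13 FPKM, log2 difference -0.47).

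**Figure D4:**
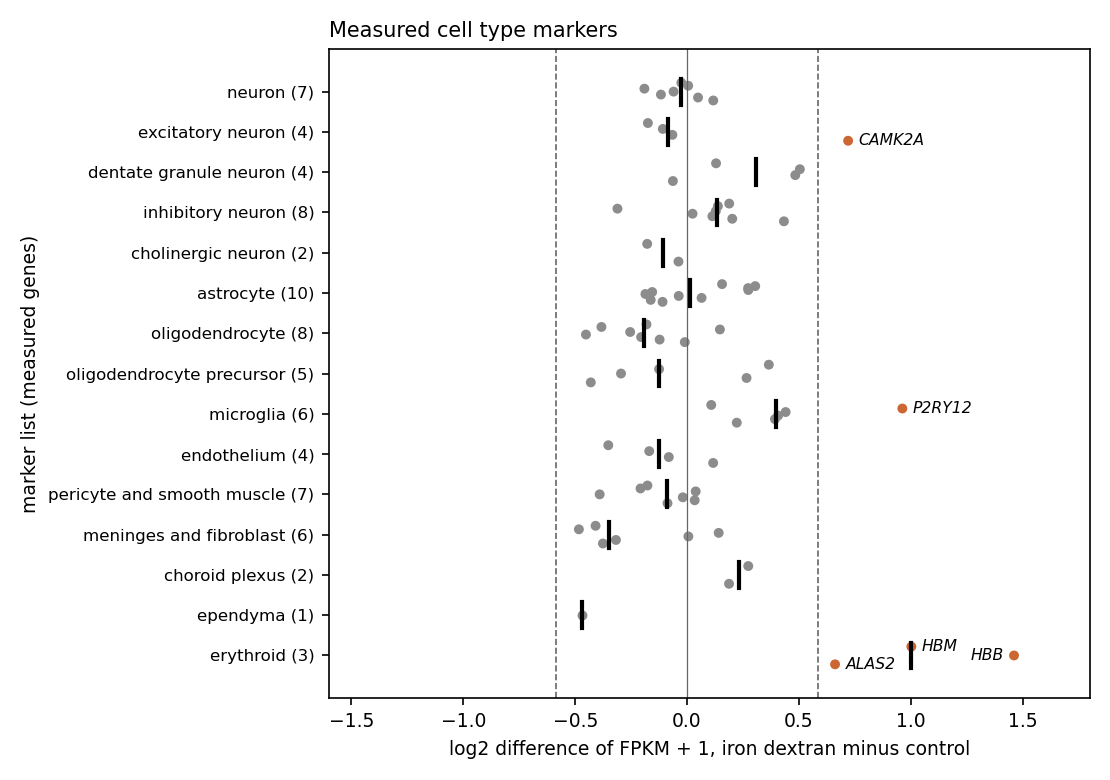
Log2 difference of FPKM + 1 (control subtracted) for each measured cell type marker (dots), with the number measured in parentheses, the list median as a black bar and 1.5-fold as dashed lines; dots are spread vertically for legibility, and markers past 1.5-fold are orange and named. The medians of the astrocyte (0.01) and neuron (-0.03) lists lie at the zero line, and those of the microglia (0.40) and erythroid (1.003) lists lie above it.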

How the data were processed

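Hippocampal RNA of 1 control and 1 iron dextran sample was analysed. The values are FPKM, as deposited by the authors, in 1 table with 1 column per sample; a column was assigned by the letter it shares with the sample title. The submitters' processing notes name cutadapt 1.2.1, TopHat and the builds Sscrofa10.2 and susScr3. The sources used here do not give the program behind the FPKM, the annotation, strand use, depth, or how the 2 names of each sample were combined. FPKM is relative to each library's total, and column sums were 924070 in control and 850165 in iron dextran.

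Symbols came from a table pairing Ensembl IDs with names, with a match for 11804 of the 25322 IDs. Differences of log2(FPKM + 1) were computed with Python 3.11.15, numpy 2.4.6 and pandas 2.3.3 over 12557 genes with a mean of at least 1 FPKM; code was tested on simulated data. Named genes are the members, all listed ligands and receptors with a row, up to 4 genes per other list with the largest absolute difference, and the 3 genes nearest to NTRK2. GFAP, ALDOC, CHAT, LHX8, ISL1, PTN, PROX1, DSP and TDO2 fall outside this rule and were picked once their values were known. Some listed genes are not reported here. The members and lists were chosen with earlier results of these data known. Alternatives were pseudocounts of 0.1 and 0.01, no filter, a mean of at least 5 FPKM, a stricter (2-fold) and a looser size rule, and columns centred on the median, rescaled by TMM (trimmed mean of M values, 30% of M and 5% of A values trimmed per side), scaled to the same total or centred in 20 bins of mean level.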

Additional observations from a re-analysis of the deposited data

How the results depend on the processing

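The single member past 1.5-fold, NTRK2, stayed past it under every pseudocount, scaling and filter tried; with a rule of 2-fold, 0 members were higher. Log2 differences over pseudocounts and scalings ran from 0.09 to 0.21 for BDNF, 0.0093 to 0.149 for NTRK3, 0.04 to 0.16 for SORT1 and 0.69 to 1.31 for NTF4, with no change of sign. Scaling to the same column total moved the median of all genes to 0.10, a shift to which the members' values under it are to be referred. With it, the medians of the Trk adaptor (0.098), p75 partner (0.062) and CREB (0.0656) lists turned above 0, as did those of the neuron (0.0945) and excitatory neuron (0.0171) markers. Centring by expression bin turned the Trk adaptor (0.0013), p75 partner (0.0078) and neuron (0.0773) medians above 0, a mean of at least 5 FPKM turned the CREB median (0.0062), and trimmed-mean rescaling turned the processing and granule list below 0 (-0.0074). The median of the 2 ligands passed 1.5-fold with pseudocounts of 0.1 (0.6664) and 0.01 (0.7062) and was 0.0974, the value of BDNF alone, at a mean of at least 5 FPKM, where NTF4 drops out; the receptor median (0.12) was then 0.05, and 0.07 with no filter. Over all genes, 310 were 1.5-fold higher and 185 lower; these counts were 558 and 332 with a pseudocount of 0.1, 599 and 357 with 0.01, 113 and 71 at a mean of at least 5 FPKM, 93 and 53 with 2-fold and 1106 and 748 with the looser size rule, and 282 were lower with no filter. No paired analysis was possible because each group had 1 sample. No replicate could be left out for the same reason, and the unknown depth allows no counting error.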

Other observations

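Other families of neurotrophic factors were also represented in the table. Of 26 listed genes 13 were measured, and 9 lay above 0 and 4 below, where 49.0% of all measured genes lay above 0. None was 1.5-fold higher or lower on the log2(FPKM + 1) scale, and the median log2 difference was 0.09. GFRA4, a co-receptor of the GDNF family, had 1.86 FPKM in control and 1.02 FPKM in iron dextran, while the co-receptor GFRA1 had 5.22 and 6.62 FPKM. IL6ST, the signalling subunit shared by receptors of the CNTF and LIF family, had 1.83 and 2.79 FPKM. GFRA4 and IL6ST are low genes whose FPKM ratios without the added 1 FPKM passed 1.5. These were 1.815 (control to iron dextran) for GFRA4 and 1.526 (iron dextran to control) for IL6ST. The heparin-binding factor MDK had 76.2 and 63.0 FPKM, and the related PTN, the most abundant gene of the list, had 352 FPKM in both samples.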
